A study of Mus musculus with 25 samples.

Results

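A list of 35 mouse genes, taken as orthologs of human Alzheimer risk genes, was followed through cortical RNA sequencing of 25 mice. The risk status of each gene was taken as listed and was not checked against association studies. The 35 genes were chosen by symbol and all were found, each once, among 54532 genes of the deposited table. Of these, 30 reached 0.5 FPKM (fragments per kilobase of gene length, scaled to library size) in at least 5 of the 25 libraries and were tested together with the other genes that did, 16450 in all. Classes were assigned by textbook knowledge of where the mouse gene is mainly expressed in brain, which was not measured here. Of the 30, 6 were classed as myeloid, 5 as neuronal and 19 as other, out of 9, 5 and 21 listed. The other class was grouped further by function.

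Genome-wide association studies of late-onset Alzheimer disease point to genes that work in several cell types. Many of them act in microglia, the resident macrophages of the brain, which surround amyloid plaques and read their surroundings through receptors coupled to kinases, phosphatases and adaptors. Others shape endocytosis and the sorting of the amyloid precursor protein, or belong to neuronal signalling.

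The mice were 5xFAD transgenics or wild type. In 5xFAD mice, mutant human amyloid precursor protein and presenilin transgenes driven by Thy1 sequences are expressed in neurons and amyloid plaques form. Among the 5xFAD mice, 5 had vehicle (AD_Veh), 5 the low dose of P (AD_LowP) and 5 the high dose (AD_HighP), and among the wild-type mice 5 had the high dose (WT_HighP) and 5 had vehicle (WT_Veh). P is derived from a natural product, and the labels name neither the compound nor its doses, the age of the mice or the length of treatment.

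Libraries held 15518358 to 17698222 reads assigned to genes. Thy1, whose sequences drive the transgenes, was at 341 to 670 FPKM in the 15 libraries of 5xFAD mice and 137 to 196 FPKM in the 10 wild-type libraries, so every library matched its genotype label. Each group held 3 males and 2 females, as read from Xist and Y-linked genes. Choroid plexus RNA stood out in 4 libraries, replicates 1 and 4 of AD_HighP and replicates 1 and 2 of WT_HighP, with 484 to 820 FPKM of Ttr, a gene of that epithelium, against 0.485 to 58.2 FPKM in the other 21. The summed striatal markers varied widely, between 43.6 and 335 FPKM in AD_HighP, 88.9 and 665 FPKM in WT_HighP and 146 and 754 FPKM in WT_Veh. In AD_Veh they lay between 190 and 448 FPKM and in AD_LowP between 49.3 and 379 FPKM.

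Levels spanned a wide range among the members. Over all 25 libraries Bin1, a membrane-curving protein of endocytosis, averaged 84.4 FPKM, Ptk2b, a calcium-responsive tyrosine kinase, 75.0 FPKM and Mef2c, a transcription factor of excitatory neurons, 47.7 FPKM. Sorl1, a sorting receptor for the amyloid precursor protein, averaged 37.6 FPKM and Celf1, an RNA-binding protein, 30.9 FPKM. The ranges of Bin1 (61.9 to 99.97 FPKM) and Ptk2b (63.8 to 87.1 FPKM) overlapped, as did those of Mef2c (28.3 to 64.7 FPKM), Sorl1 (26.6 to 54.4 FPKM) and Celf1 (24.9 to 38.3 FPKM). Every myeloid member was low in whole cortex, with Ptpn6 at 2.81 FPKM, Cd48 at 2.01 FPKM, Blnk at 1.53 FPKM, Ms4a6d at 0.833 FPKM, Rin3 at 0.780 FPKM and Abi3 at 0.493 FPKM.

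In none of the 25 libraries did 5 members reach 0.5 FPKM. Their means were 0.250 FPKM for Echdc3, 0.0856 FPKM for the ephrin receptor Epha1, 0.0818 FPKM for the immune adaptor Scimp, 0.0728 FPKM for Ms4a7 and 0.0558 FPKM for the scaffold protein Cass4, and none of them was tested. Just inside the filter lay Iqck, at or over 0.5 FPKM in 6 libraries, and Abi3, in 10. The 10 libraries in which Abi3 passed were all from 5xFAD mice and none was wild type, so Abi3 entered the test only through the genotype in which it was higher. Cd48 was at or over 0.5 FPKM in 15 libraries of 5xFAD and 5 of wild-type mice, and Ms4a6d and Rin3 each in 15 and 7.

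The first comparison, AD_Veh against WT_Veh, asks what the transgenes do to the risk genes without P. The myeloid members Ptpn6, Cd48 and Rin3 were higher in the 5xFAD cortex, Ptpn6 and Cd48 with the lowest adjusted p-values, as was Abi3, which entered the test only through its level in 5xFAD mice. Ptpn6 encodes SHP-1, a tyrosine phosphatase recruited to inhibitory receptors of leukocytes, and Cd48 encodes a lipid-anchored surface protein of the SLAM family that binds Cd244. Abi3, a regulator of actin branching, and Rin3, an exchange factor for the endosomal GTPase Rab5, rose as well. No neuronal and no other member was called in either direction. In all, 4 of the 30 tested members were called higher and 0 lower at an adjusted p under 0.05 (limma, Benjamini-Hochberg adjustment over all tested genes), where 2.83% of all tested genes were called higher and 0.274% lower. Without Abi3 the count of members called higher was 3.

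The promoters of Ptpn6 and Cd48 are printed because these were the members called between genotypes both under vehicle and under high P. Each is the 300 bases from 250 before to 50 after a RefSeq transcription start on the GRCm38.p6 build, read 5′ to 3′ on the strand of the gene. The capitals mark GGAA on either strand (written TTCC where it lies on the other one), the core bound by ETS factors, to which PU.1 of myeloid cells belongs. The Ptpn6 window lies at chr6:124738660-124738959 on the minus strand and that of Cd48 at chr1:171681742-171682041 on the plus strand.
Ptpn6: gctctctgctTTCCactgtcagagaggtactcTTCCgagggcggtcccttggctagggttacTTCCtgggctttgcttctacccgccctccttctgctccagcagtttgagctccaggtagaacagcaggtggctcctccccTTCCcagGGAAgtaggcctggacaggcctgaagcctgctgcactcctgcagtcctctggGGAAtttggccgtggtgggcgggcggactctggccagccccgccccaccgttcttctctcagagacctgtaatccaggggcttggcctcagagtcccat
Cd48: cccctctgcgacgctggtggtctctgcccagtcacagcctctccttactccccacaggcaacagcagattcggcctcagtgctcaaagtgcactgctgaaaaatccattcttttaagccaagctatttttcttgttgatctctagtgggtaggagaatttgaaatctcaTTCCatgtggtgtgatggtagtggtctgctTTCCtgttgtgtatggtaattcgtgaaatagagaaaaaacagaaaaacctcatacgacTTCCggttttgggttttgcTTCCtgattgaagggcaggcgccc

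These windows held 6 and 4 copies of GGAA. The core was found in 96.0% of 32851 promoters of the same length, with a median of 3 copies. The longer form GAGGAA, searched on both strands, was found in 28.3% of all the promoters and 26.4% of those of tested genes. It was in 0 of the 5 windows that RefSeq gave for 4 myeloid members (Ptpn6, Cd48, Blnk and Rin3, which had a pair of windows). Among the windows of the other classes, 3 of 6 neuronal ones and 9 of 21 of the other class held it. With 5 windows, a count of 0 is not set apart from the background share. Promoters were at hand for 23 of the 30 tested members.

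Ptpn6 (ENSMUSG00000004266, chr6:124720707-124738714 on mm10, minus strand) measured 4.10, 3.77, 5.67, 4.25 and 3.22 FPKM in AD_Veh, against 1.24, 1.40, 1.07, 0.549 and 0.757 FPKM in WT_Veh. The groups were far apart, the lowest AD_Veh library lying above the highest WT_Veh library. The log2 fold change on the log2(FPKM + 0.5) scale was 1.66 (SE 0.19, limma adjusted p = 1.258e-06), with all 5 mice of AD_Veh above all 5 of WT_Veh. Because of the added 0.5 FPKM, this scale understates the change of genes this low. Cd48 (ENSMUSG00000015355, chr1:171682009-171705258, plus strand) measured 2.54, 1.78, 5.81, 2.74 and 3.47 FPKM in AD_Veh, against 0.808, 0.406, 0.744, 0.846 and 0.357 FPKM in WT_Veh. Cd48 was again separated without overlap, with more spread among the 5xFAD mice than Ptpn6. Its log2 fold change was 1.67 (SE 0.26, limma adjusted p = 0.0001638).

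Abi3 measured 0.772, 0.726, 0.515, 0.709 and 0.497 FPKM in AD_Veh, against 0.405, 0.0726, 0.241, 0.171 and 0.204 FPKM in WT_Veh. The ranges did not overlap, at a depth of 34.5 reads per library on average, beside 133 for Ptpn6, 40.3 for Cd48 and 90.0 for Rin3. Its log2 fold change was 0.68 (SE 0.18, limma adjusted p = 0.02839). The Abi3 value depended on the added constant, at 0.43 with 1 FPKM added, 1.29 with 0.1 FPKM added and 1.69 by voom on recovered reads. Abi3 overlaps Gngt2, Phospho1 and Zfp652 on the opposite strand, and no source states whether the counting used strand, so reads may be shared; Gngt2 averaged 0.472 ± 0.307 FPKM in AD_Veh and 0.287 ± 0.247 FPKM in WT_Veh (SD, n = 5 each). The other 2 were at 0.227 ± 0.0988 FPKM in AD_Veh and 0.243 ± 0.179 FPKM in WT_Veh for Phospho1 and at 4.20 ± 0.232 FPKM in AD_Veh and 4.14 ± 0.543 FPKM in WT_Veh for Zfp652. Rin3 measured 1.09, 0.768, 0.796, 1.16 and 0.725 FPKM in AD_Veh, against 0.588, 0.415, 0.440, 0.536 and 0.381 FPKM in WT_Veh. Here too the lowest AD_Veh library exceeded the highest WT_Veh library. Uncalled members could be without overlap as well. Ms4a6d was at least 0.732 FPKM in AD_Veh and at most 0.730 FPKM in WT_Veh, and Adamts1 at least 2.994 and at most 2.970 FPKM. The share of all tested genes without overlap was not counted in any comparison. For Rin3, the limma result follows. The log2 fold change of Rin3 was 0.53 (SE 0.14, limma adjusted p = 0.03515). Among the other settings tried, the Abi3 call was lost in 9 of 23, with limma adjusted p-values up to 0.09027, and that of Rin3 in 12 of 24, up to 0.122, whereas Ptpn6 and Cd48 were called in all 24. A correction for GC content lost the Rin3 call and kept that of Abi3. They had the highest GC content of the tested members, 59.0% for Rin3 and 59.7% for Abi3.

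The remaining pair of myeloid members did not pass the test. Blnk, an adaptor between the kinase Syk and phospholipase C gamma, averaged 1.94 ± 0.478 FPKM in AD_Veh and 1.11 ± 0.299 FPKM in WT_Veh (SD, n = 5 each), a log2 difference of 0.59 (limma adjusted p = 0.05768), and was called in 5 of 24 other settings. Ms4a6d, a membrane protein of the Ms4a family, averaged 1.22 ± 0.626 FPKM in AD_Veh and 0.635 ± 0.0985 FPKM in WT_Veh (SD, n = 5 each), a log2 difference of 0.54 (limma adjusted p = 0.2667). The median log2 fold change of the 6 tested myeloid members was 0.63, beside 0.04 for the 5 neuronal members, -0.01 for the 19 others and -0.02 for all tested genes. Since Abi3 was tested only because of its level in 5xFAD mice, that myeloid median is a description of the members that passed.

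**Figure D1:**
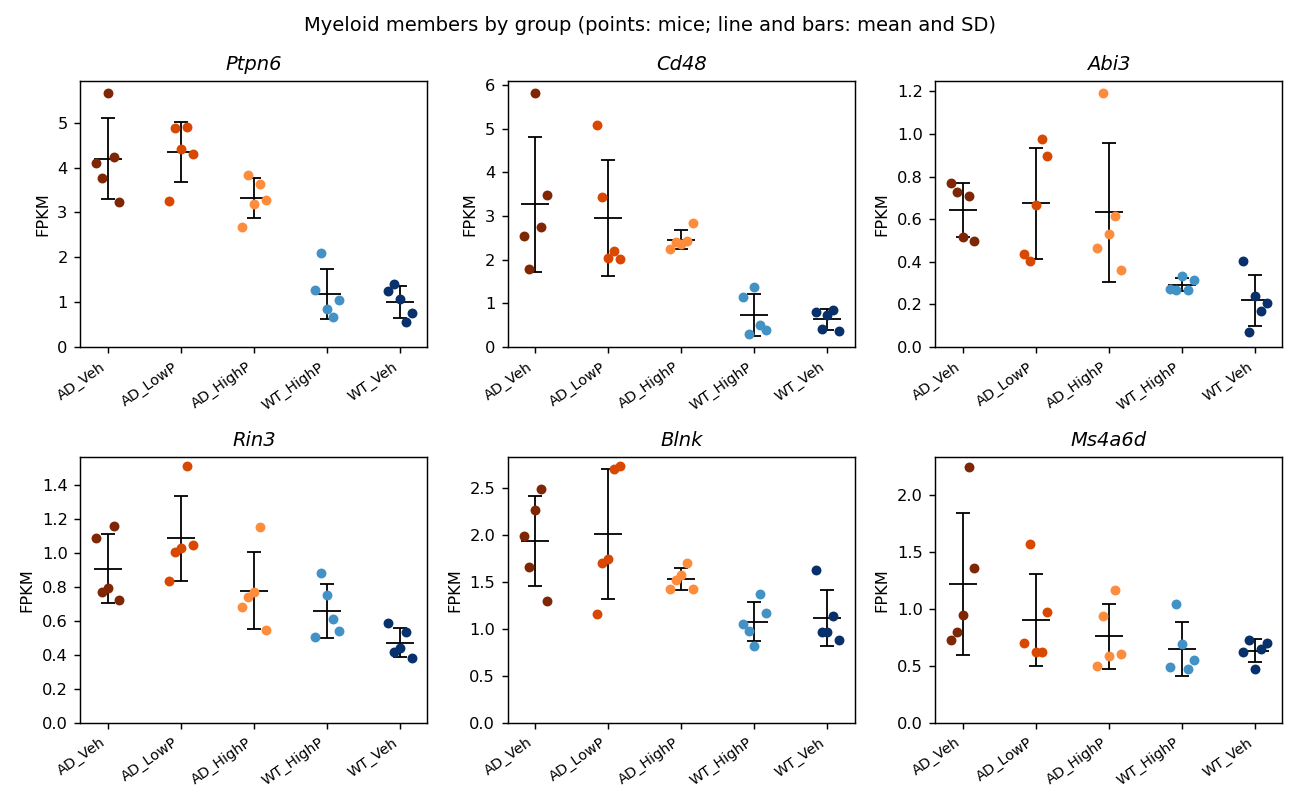
Level of 6 myeloid members in each mouse (vertical axes, FPKM, each from 0) by group (horizontal axes). Points are mice, the horizontal mark and bars are the mean and SD of 5 mice. Ptpn6 and Cd48 of all 15 mice with the transgenes lie above all 10 wild-type mice, while the other 4 genes overlap.

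Across all groups, the separation of Ptpn6 and Cd48 by genotype had no exception, though the share of all tested genes so separated was not counted. The 15 libraries of 5xFAD mice had a lowest, median and highest Ptpn6 level of 2.66, 3.83 and 5.67 FPKM, against 0.549, 1.06 and 2.09 FPKM in the 10 wild-type libraries. For Cd48 the same values were 1.78, 2.44 and 5.81 FPKM in 5xFAD mice, against 0.296, 0.619 and 1.37 FPKM in wild-type mice. Abi3 exceeded every wild-type library in 13 of 15 5xFAD libraries, Blnk in 9, Rin3 in 7 and Ms4a6d in 4.

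Markers of microglia rose with these members. In AD_Veh against WT_Veh, 7 of 10 homeostatic microglia markers, 9 of 10 plaque-associated microglia markers and 5 of 6 pan-myeloid markers were called higher. The summed homeostatic markers reached 264 to 321 FPKM in AD_Veh and 106 to 144 FPKM in WT_Veh, the plaque-associated markers 348 to 584 FPKM in AD_Veh and 101 to 125 FPKM in WT_Veh, and the pan-myeloid markers 170 to 243 FPKM in AD_Veh and 47.7 to 64.1 FPKM in WT_Veh. In bulk cortex, more cells of a type and more RNA per cell cannot be told apart, and the part of the marker rise in the members' differences was not tested.

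Within the groups, the 6 myeloid members followed the markers to different degrees. Each value was taken as its deviation from its group mean, so differences between the groups did not enter. Over the 25 libraries the Ptpn6 deviations followed those of the pan-myeloid marker mean with Pearson's r of 0.73 and Spearman's rho of 0.76. Those of Ms4a6d had 0.46 and 0.49 and those of Cd48 0.36 and 0.38. The values were 0.24 and 0.16 for Rin3, 0.03 and 0.04 for Blnk and -0.00087 and -0.14 for Abi3. Members of other classes reached values like those of Cd48, with 0.40 and 0.44 for Adam17 and 0.39 and 0.52 for Fermt2. These are descriptions, since both values of a point come from the same library and share its depth.

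Markers of other leukocytes were low, but some reached levels like those of the myeloid members. None of the 3 tested of 10 lymphocyte and neutrophil markers was called (limma), and their sum was 0.873 to 5.55 FPKM in AD_Veh and 0.724 to 2.34 FPKM in WT_Veh. The B cell gene Ms4a1 was listed at 0 in 21 of the 25 libraries, the neutrophil gene Ly6g in 24 and the T cell genes Cd3e and Cd3g in 10 and 13, none of them over 0.222 FPKM. Higher in the list were S100a9, S100a8 and Mmp9, with highest libraries at 2.69, 1.67 and 0.898 FPKM. Border macrophage markers, of which 0 of 4 tested were called, summed to 2.15 to 5.50 FPKM in AD_Veh and 1.97 to 3.25 FPKM in WT_Veh.

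The comparison AD_HighP against WT_HighP asks the same of the genotype under high P, in other mice. Ptpn6 and Cd48 were higher again and the rest of the members were not called. In numbers, 2 of the 30 tested members were called higher and 0 lower, where 1.5% of all tested genes were called higher and 0.255% lower (limma, Benjamini-Hochberg). Both were again without overlap between the groups, for which no share of all tested genes was counted.

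In AD_HighP the Ptpn6 levels were 2.66, 3.83, 3.19, 3.64 and 3.27 FPKM, against 1.27, 2.09, 0.841, 0.671 and 1.04 FPKM in WT_HighP. The highest wild-type library, one of those rich in Ttr, stayed below the lowest AD_HighP library. The log2 fold change of Ptpn6 was 1.23 (SE 0.19, limma adjusted p = 0.0001986). For Cd48 the levels were 2.25, 2.40, 2.36, 2.44 and 2.83 FPKM in AD_HighP, against 1.14, 0.296, 1.37, 0.494 and 0.400 FPKM in WT_HighP. Cd48 varied little among the AD_HighP mice and more among the WT_HighP mice. Its log2 fold change was 1.33 (SE 0.26, limma adjusted p = 0.004101). Without the 4 libraries rich in Ttr, which leaves 3 mice a group here, Cd48 kept its size, 1.35, and missed the threshold (limma adjusted p = 0.09948).

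Abi3 measured 0.464, 1.19, 0.532, 0.614 and 0.363 FPKM in AD_HighP, against 0.272, 0.268, 0.335, 0.269 and 0.315 FPKM in WT_HighP. Every AD_HighP library lay above every WT_HighP one, yet the log2 difference of 0.48 (SE 0.18) did not pass (limma adjusted p = 0.2649). Rin3 measured 0.683, 0.742, 0.768, 1.15 and 0.543 FPKM in AD_HighP, against 0.505, 0.884, 0.752, 0.611 and 0.540 FPKM in WT_HighP. These ranges overlapped, and the log2 difference was 0.14 (95% interval -0.15 to 0.42, limma adjusted p = 0.8039). The differences of Blnk and Ms4a6d were 0.37 and 0.12, with limma adjusted p-values of 0.4333 and 0.8904. The median over the tested members was 0.42 in the myeloid class, -0.06 in the neuronal class, 0.02 in the others and -0.00173 over all tested genes.

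Microglial markers moved with genotype here too. In AD_HighP against WT_HighP, 5 of 10 homeostatic, 9 of 10 plaque-associated and 5 of 6 pan-myeloid markers were called higher, and the pan-myeloid sum was 115 to 179 FPKM in AD_HighP and 40.1 to 53.3 FPKM in WT_HighP. The part of these markers in the members' differences was not tested.

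Whether the genotype differences themselves changed with high P was tested by the interaction, in which 0% of all tested genes and 0 of 30 members were called, with 0 members and 1138 of the 16450 genes at an unadjusted p under 0.05 and 0 members by voom on recovered reads. The interaction was -0.43 for Ptpn6 (95% interval -0.97 to 0.12, limma adjusted p = 0.7412) and -0.34 for Cd48 (95% interval -1.11 to 0.43, limma adjusted p = 0.8337). That of Rin3 was -0.39 (95% interval -0.80 to 0.02, limma adjusted p = 0.713), so a genotype difference as large under high P as under vehicle and none at all were both within reach of the error. All 6 myeloid values were negative, between -0.43 and -0.20, but they share the same 4 groups of mice. Across the 30 members the interaction followed GC content with Pearson's r of -0.57 and Spearman's rho of -0.55. The part of GC content in these values was not tested.

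**Figure D2:**
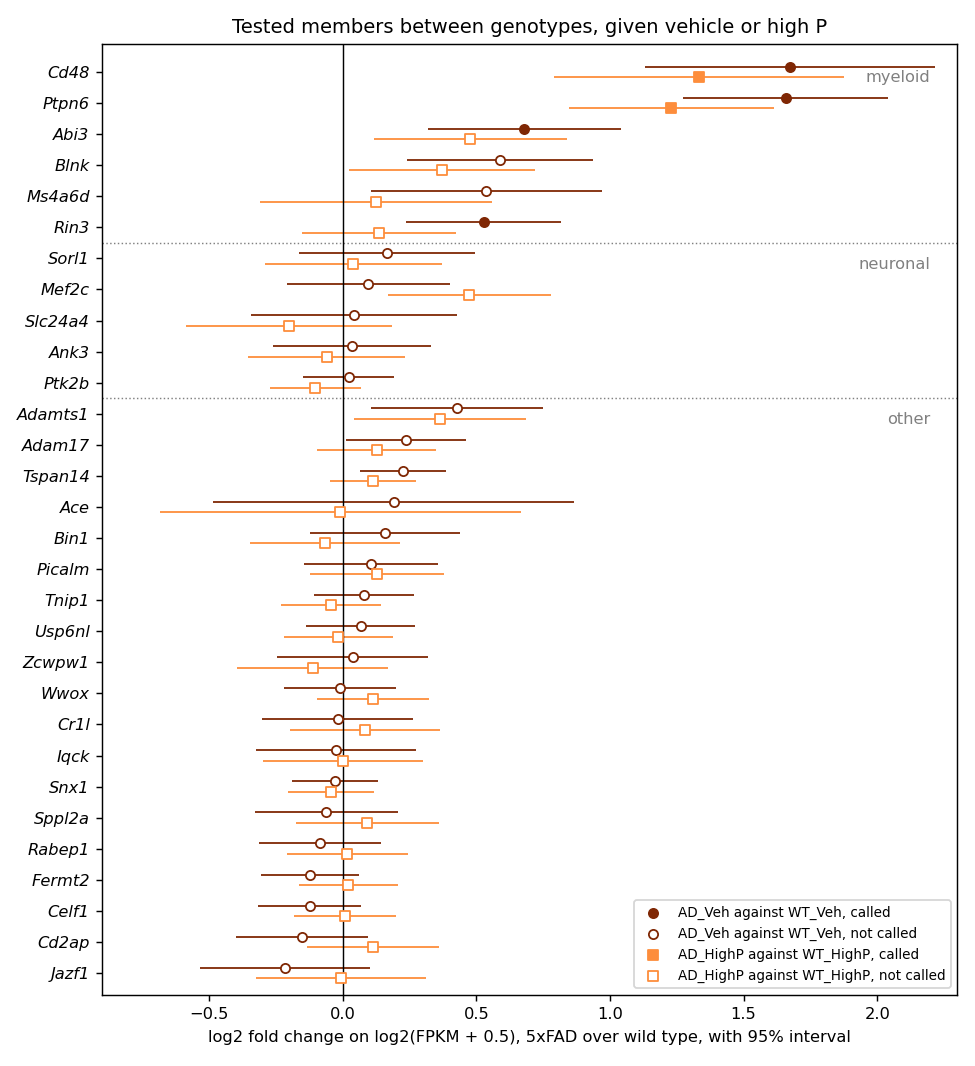
Log2 fold change of the 30 tested members between genotypes (horizontal axis, 5xFAD over wild type on log2(FPKM + 0.5), with 95% intervals), under vehicle (circles) and under high P (squares), by class. Filled marks are called at an adjusted p under 0.05. The 4 called under vehicle and the 2 called under high P are all myeloid, and the neuronal and other members lie between -0.22 and 0.47.

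None of the 5 neuronal members was called between genotypes, with log2 values between 0.02 and 0.17 in AD_Veh against WT_Veh. Ank3, which anchors proteins at the axon initial segment, averaged 17.7 ± 0.875 FPKM in AD_Veh and 17.6 ± 4.33 FPKM in WT_Veh (SD, n = 5 each). Slc24a4, which exchanges sodium for calcium and potassium, averaged 10.3 ± 3.15 FPKM in AD_Veh and 9.91 ± 2.77 FPKM in WT_Veh (SD, n = 5 each). Excitatory neuron markers, 0 of 6 called, summed to 1028 to 2004 FPKM in AD_Veh and 1231 to 1874 FPKM in WT_Veh. Inhibitory neuron markers, 0 of 6 called, summed to 313 to 390.0 FPKM in AD_Veh and 390.2 to 451 FPKM in WT_Veh, without overlap but with the nearest libraries almost equal. Under high P, where 1 of the 6 was called lower, they summed to 302 to 350 FPKM in AD_HighP and 397 to 518 FPKM in WT_HighP. Striatal markers, 0 of 6 called, had a median log2 fold change of -1.46 there. The part of these lists in the neuronal members' values was not tested.

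Mef2c measured 52.6, 45.5, 52.5, 51.7 and 34.6 FPKM in AD_Veh, against 41.9, 46.9, 39.8, 40.6 and 50.7 FPKM in WT_Veh. These ranges overlapped and the log2 difference was 0.10 (95% interval -0.21 to 0.40, limma adjusted p = 0.8864). Under high P, Mef2c measured 56.5, 55.3, 48.3, 52.9 and 64.0 FPKM in AD_HighP, against 34.98, 28.3, 41.4, 50.2 and 47.2 FPKM in WT_HighP. All AD_HighP mice but 1 lay above all WT_HighP mice, and the log2 difference of 0.47 (95% interval 0.17 to 0.78) did not pass after adjustment (limma adjusted p = 0.1344). With array weights Mef2c was called higher here. The low-dose mice had 40.1, 43.4, 64.7, 55.0 and 53.6 FPKM. Over all groups 10 of 15 libraries of 5xFAD mice exceeded every wild-type library for Mef2c, and the lowest wild-type library, at 28.3 FPKM, was one of those rich in Ttr.

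Sorl1 measured 41.1, 38.4, 41.2, 43.1 and 27.5 FPKM in AD_Veh, against 31.8, 32.1, 29.2, 36.9 and 39.0 FPKM in WT_Veh. The other groups spread as widely, with 28.2, 36.0, 54.4, 37.9 and 40.0 FPKM in AD_LowP and 38.3, 41.6, 35.5, 35.3 and 41.8 FPKM in AD_HighP. In WT_HighP the levels were 35.7, 26.6, 36.3, 53.8 and 39.1 FPKM. No group stood apart, and the genotype difference under vehicle was 0.17 (95% interval -0.16 to 0.50, limma adjusted p = 0.7851).

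Ptk2b varied little between groups. It measured 73.2, 77.1, 66.1, 83.3 and 82.1 FPKM in AD_Veh, 76.2, 70.2, 79.2, 87.1 and 73.3 FPKM in AD_LowP and 70.2, 63.8, 74.7, 69.0 and 74.1 FPKM in AD_HighP. Wild-type levels were 82.1, 84.5, 71.9, 65.2 and 75.6 FPKM in WT_HighP and 67.9, 70.8, 76.6, 80.2 and 79.9 FPKM in WT_Veh. Every group overlapped every other, and the 95% interval of AD_Veh against WT_Veh, -0.15 to 0.19 on the log2 scale around 0.02, was among the narrowest of the members (limma adjusted p = 0.9579).

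The members of endocytosis and membrane traffic were not called between genotypes, with log2 values between -0.15 and 0.16 in AD_Veh against WT_Veh. Bin1 measured 98.3, 90.1, 85.7, 73.1 and 64.7 FPKM in AD_Veh, 63.4, 64.6, 95.6, 92.7 and 98.0 FPKM in AD_LowP and 96.7, 98.6, 87.7, 85.9 and 78.2 FPKM in AD_HighP. In wild-type mice it measured 94.5, 91.5, 91.0, 99.97 and 90.2 FPKM in WT_HighP and 98.0, 75.3, 69.2, 65.1 and 61.9 FPKM in WT_Veh. WT_HighP was the tightest group, with 4 of 5 WT_Veh libraries below all of it. The genotype difference of Bin1 was 0.16 under vehicle (95% interval -0.12 to 0.44, limma adjusted p = 0.744) and -0.07 under high P (limma adjusted p = 0.911).

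Picalm, a clathrin assembly adaptor, measured 10.2, 10.6, 11.7, 12.9 and 13.2 FPKM in AD_Veh, 12.6, 13.8, 12.3, 9.27 and 9.44 FPKM in AD_LowP and 8.33, 9.20, 9.75, 9.85 and 12.3 FPKM in AD_HighP. Its wild-type levels were 9.21, 8.43, 9.56, 8.67 and 8.85 FPKM in WT_HighP and 8.44, 11.6, 9.74, 13.1 and 11.99 FPKM in WT_Veh. Genotype ranges overlapped, and the difference under vehicle was 0.10 (95% interval -0.15 to 0.35, limma adjusted p = 0.836). Snx1, a sorting nexin of the retromer, had group means between 11.3 and 11.98 FPKM. Usp6nl, which inactivates Rab5, had group means between 3.59 and 4.08 FPKM.

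**Figure D3:**
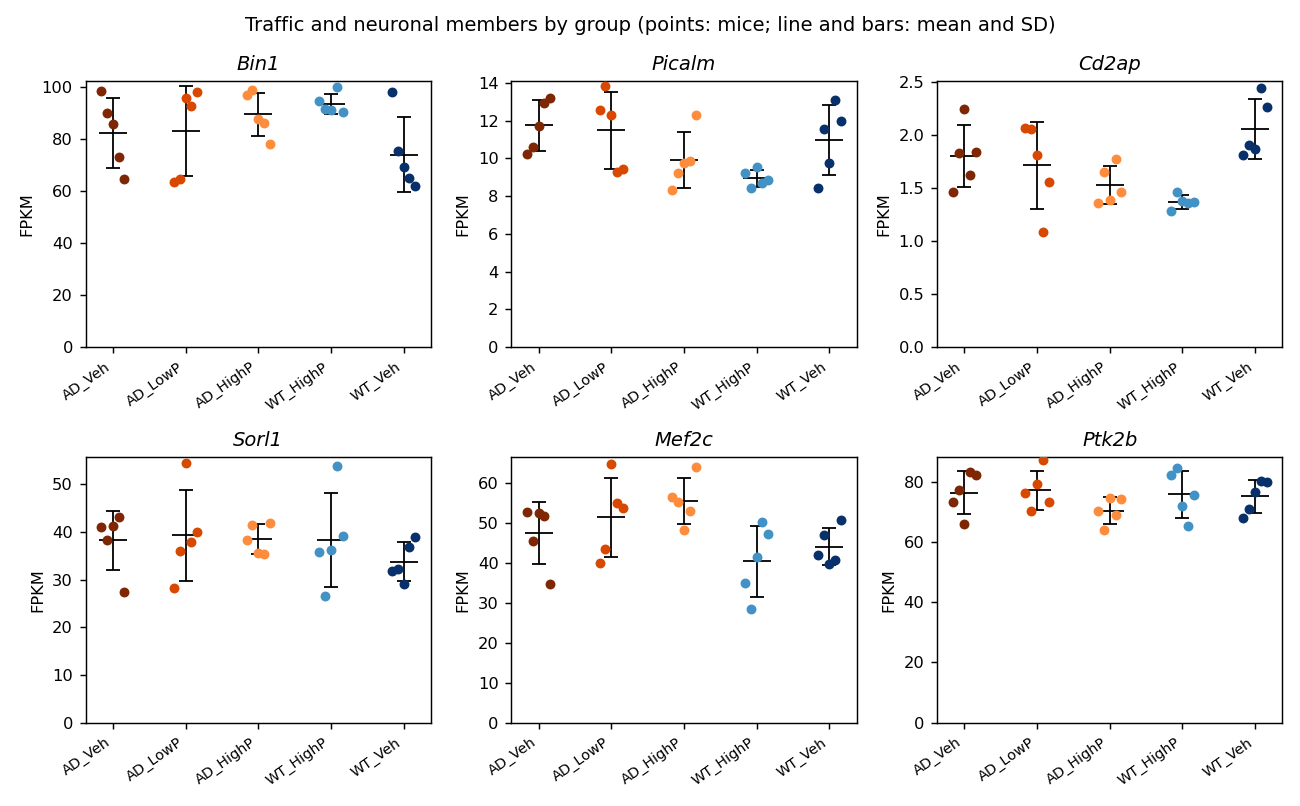
Level of 3 members of membrane traffic (Bin1, Picalm, Cd2ap) and 3 neuronal members (Sorl1, Mef2c, Ptk2b) in each mouse (vertical axes, FPKM, each from 0) by group (horizontal axes). Points are mice, the horizontal mark and bars the mean and SD of 5 mice. The genotypes overlap in all 6, and Cd2ap is lower in every WT_HighP mouse than in any WT_Veh mouse.

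Among the proteases and their partners, 3 had positive differences that were not called. Adamts1, a secreted metalloprotease, averaged 3.97 ± 0.692 FPKM in AD_Veh and 2.79 ± 0.176 FPKM in WT_Veh (SD, n = 5 each), a log2 difference of 0.43 (limma adjusted p = 0.202). Adam17, a sheddase of membrane proteins, averaged 2.95 ± 0.161 FPKM in AD_Veh and 2.44 ± 0.317 FPKM in WT_Veh (SD, n = 5 each), a log2 difference of 0.24 (limma adjusted p = 0.3916). Tspan14, a tetraspanin partner of Adam10, averaged 16.1 ± 1.05 FPKM in AD_Veh and 13.8 ± 1.87 FPKM in WT_Veh (SD, n = 5 each), a log2 difference of 0.23 (limma adjusted p = 0.1634). For Sppl2a, an intramembrane protease, the difference was -0.06 (limma adjusted p = 0.9204).

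The 8 tested members left over had log2 differences between -0.22 and 0.08 in AD_Veh against WT_Veh, none called. They were Celf1, the complement regulator Cr1l, the integrin activator Fermt2, Iqck, the zinc finger protein Jazf1, the ubiquitin-binding Tnip1, the oxidoreductase Wwox and the histone reader Zcwpw1. Jazf1 had the lowest value, with 9.20 ± 2.80 FPKM in AD_Veh and 10.6 ± 1.84 FPKM in WT_Veh (SD, n = 5 each, limma adjusted p = 0.6734). Iqck overlaps the far more abundant Gprc5b, at 38.4 FPKM, on the opposite strand, so its reads may be shared.

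Several members lie beside another risk gene or another member, and the genotype values of neighbours are set side by side here. Rin3 and the neuronal Slc24a4 lie 15.96 kb apart on chromosome 12, and in AD_Veh against WT_Veh Rin3 was called at 0.53 while Slc24a4 had 0.04 (95% interval -0.34 to 0.43). Celf1 lies 62.9 kb from Spi1, the gene of PU.1, and had -0.12 (SE 0.09, limma adjusted p = 0.6998), where Spi1 had 1.18 (SE 0.20, limma adjusted p = 0.000571). Ptk2b lies 172 kb from Clu, the gene of a secreted chaperone, which had 0.53 (SE 0.11, limma adjusted p = 0.003594). Scimp, 32.2 kb from Rabep1 on chromosome 11, and Ms4a7, 250 kb from Ms4a6d on chromosome 19, were too low to test. The differences between neighbours were not tested.

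A list of 41 further mouse genes, taken as orthologs of risk genes, was also chosen with earlier results of these data known, and 39 were tested. In AD_Veh against WT_Veh, 2.83% of all tested genes were called higher and 0.274% lower. Of the 39, 12 were called higher and 0 lower. Those past 1 log2 unit were Trem2, a microglial receptor for lipids, at 2.51 (SE 0.17), Grn at 1.26 (SE 0.15), Ctsh at 1.24 (SE 0.16), Spi1 at 1.18 (SE 0.20) and Apoe at 1.06 (SE 0.26), with limma adjusted p-values between 2.442e-10 and 0.02192. In AD_HighP against WT_HighP, 1.5% of all tested genes were called higher and 0.255% lower. Of the 39, 9 were called higher and 0 lower. Apoe was not among these 9, with a difference of -0.0023 (SE 0.26, limma adjusted p = 0.9993). It was called higher in WT_HighP against WT_Veh, at 1.15 (SE 0.26, limma adjusted p = 0.0356), as 1 of the 39, beside 1.39% of all tested genes. In that comparison no gene at all was called without the 4 libraries rich in Ttr or with no expression filter, so the Apoe call was lost there. With the GC correction 22 genes were called.

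The effect of P in 5xFAD mice was asked at both doses. At the low dose against vehicle 0 of 30 members were called, 0 at an unadjusted p under 0.05 and 0 by voom on recovered reads, where 0% of all tested genes were called and 491 of 16450 had an unadjusted p under 0.05 (limma). At the high dose against vehicle 0 of 30 members were called, where 0.00608% of all tested genes were, with 2 members (Rabep1 and Adam17) at an unadjusted p under 0.05 and 0 called by voom. Over all tested genes 983 of 16450 had such a p, so the 2 members are near the background. Between the doses, AD_HighP against AD_LowP, 0 of 30 members and 0% of all tested genes were called, with 1 member (Rin3) and 1019 of 16450 genes at an unadjusted p under 0.05 and 0 members called by voom. Striatal markers, 0 of 6 called, had a median log2 fold change of -1.09 at the low dose against vehicle. At the high dose it was -1.77, and between the doses -0.67, also with 0 of 6 called. The part of this list in the members' values was not tested.

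The Ptpn6 levels of the low-dose mice were 3.26, 4.88, 4.41, 4.91 and 4.31 FPKM, so that all 3 groups of 5xFAD mice overlapped. Against vehicle, Ptpn6 differed by 0.05 at the low dose (95% interval -0.33 to 0.44) and -0.29 at the high dose (95% interval -0.67 to 0.10, limma adjusted p = 0.7803). Cd48 in low-dose mice was 5.09, 3.43, 2.03, 2.21 and 2.01 FPKM, also overlapping with the other groups. Against vehicle, Cd48 differed by -0.12 at the low dose (95% interval -0.66 to 0.43) and -0.27 at the high dose (95% interval -0.81 to 0.28, limma adjusted p = 0.8109). All 6 myeloid members had negative values at the high dose, with a median of -0.26, and none was called. The median was -0.11 for the neuronal members, -0.09 for the others and 0.00209 over all tested genes. Of all 30 members 7 had positive values, and the 6 myeloid values share the same mice. The pan-myeloid marker sum was 170 to 243 FPKM in AD_Veh, 120 to 173 FPKM in AD_LowP and 115 to 179 FPKM in AD_HighP, and its part in these values was not tested.

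Abi3 and Rin3 in low-dose mice were 0.435, 0.403, 0.668, 0.975 and 0.898 FPKM and 0.835, 1.00, 1.03, 1.51 and 1.05 FPKM. Rin3 had its highest group mean there, and the high-dose mice differed from low-dose mice by -0.32 (95% interval -0.61 to -0.03, limma adjusted p = 0.7728). Adam17 was separated without overlap between AD_HighP, at 1.91 to 2.68 FPKM, and AD_Veh, at 2.80 to 3.17 FPKM. Its log2 difference of -0.30 (SE 0.11) was not called (limma adjusted p = 0.7803), and how many tested genes were so separated was not counted.

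High P in wild-type mice, WT_HighP against WT_Veh, gave 1 called member. Cd2ap, an adaptor between membrane receptors and actin, was lower. By count, 0 of the 30 tested members were called higher and 1 lower, where 1.39% of all tested genes were called higher and 1.79% lower (limma, Benjamini-Hochberg), so that a single member is near the background share. At an unadjusted p under 0.05 were 9 members and 4581 of the 16450 tested genes.

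Cd2ap measured 1.28, 1.46, 1.37, 1.36 and 1.37 FPKM in WT_HighP, against 1.80, 1.90, 1.86, 2.44 and 2.26 FPKM in WT_Veh. The groups did not overlap, and the log2 fold change was -0.44 (SE 0.12, limma adjusted p = 0.04684). In 5xFAD mice it measured 1.46, 1.83, 2.24, 1.62 and 1.84 FPKM in AD_Veh, 2.07, 2.06, 1.81, 1.08 and 1.55 FPKM in AD_LowP and 1.36, 1.65, 1.38, 1.77 and 1.46 FPKM in AD_HighP. There all 3 groups overlapped, and the high dose differed from vehicle by -0.18 (limma adjusted p = 0.7811). The Cd2ap call was lost in 16 of 24 other settings, among them a correction for GC content, which left a log2 fold change of -0.08 (limma adjusted p = 0.8536).

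Members of low and of high GC content had mostly opposite signs in this comparison. Of the 19 members with under 50% GC in their longest annotated transcript, 17 had a negative log2 fold change, with a median of -0.19, and of the 11 at 50% or more, 9 had a positive one, with a median of 0.16. Across the 30 members the log2 fold change followed GC content with Pearson's r of 0.77 and Spearman's rho of 0.80, a description across genes that share libraries. Over all tested genes, the slope of a library's log2 level on GC content was 0.173 ± 0.0496 log2 units per 10 points in WT_HighP and -0.150 ± 0.148 in WT_Veh (SD, n = 5 each). The share of mitochondrially encoded reads was 3.96% to 4.71% in WT_HighP and 5.89% to 6.64% in WT_Veh. The part of either in the members' values was not tested.

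The members of low GC content with the lowest values after Cd2ap were Sppl2a at -0.33 and Rabep1, an effector of Rab5, at -0.33, and among those of high GC content Bin1 had 0.35 and Tnip1 0.24. None of the 4 was called, with limma adjusted p-values of 0.1059, 0.07207, 0.1025 and 0.094. Celf1 averaged 28.2 ± 2.12 FPKM in WT_HighP and 34.3 ± 3.56 FPKM in WT_Veh, and Fermt2 15.4 ± 1.15 FPKM in WT_HighP and 17.8 ± 0.832 FPKM in WT_Veh (SD, n = 5 each). Like Cd2ap, Fermt2 was without overlap, at most 16.98 FPKM in WT_HighP and at least 17.01 FPKM in WT_Veh. Tspan14 averaged 15.9 ± 1.15 FPKM in WT_HighP and 13.8 ± 1.87 FPKM in WT_Veh (SD, n = 5 each), the opposite direction. These 3 were not called either, at limma adjusted p-values of 0.07603, 0.1373 and 0.09057. In WT_HighP against WT_Veh the values of the 2 genes called between genotypes at both treatments were 0.14 for Ptpn6 (95% interval -0.24 to 0.52) and 0.07 for Cd48 (95% interval -0.47 to 0.62).

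**Figure D4:**
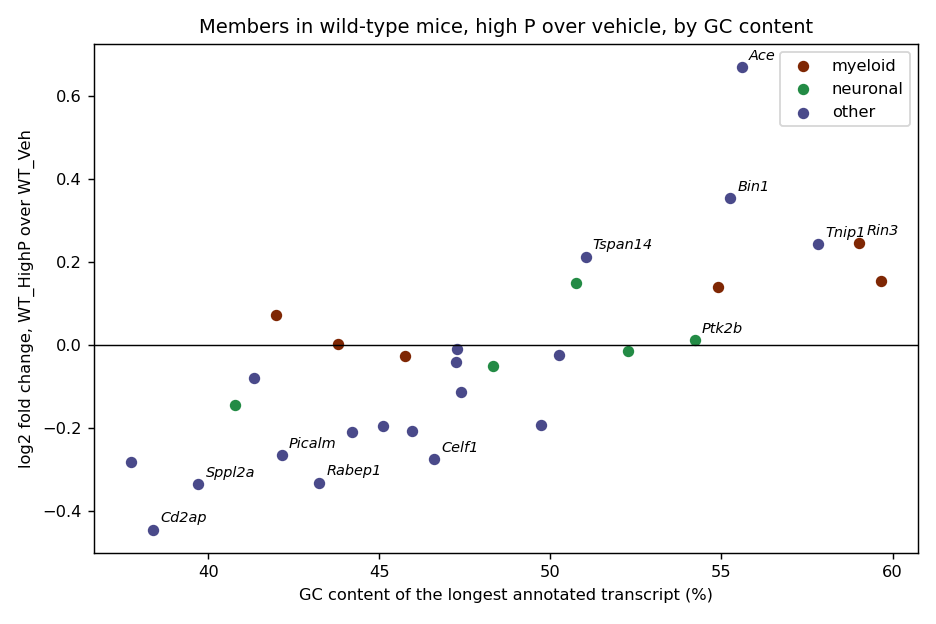
Log2 fold change of the 30 tested members in wild-type mice, WT_HighP over WT_Veh (vertical axis), against the GC content of the longest annotated transcript (horizontal axis, percent), with a point for each gene coloured by class. Points run from lower left, where Cd2ap lies at -0.44, to upper right, where Ace lies at 0.67.

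Ace, the angiotensin-converting enzyme, was highest in the libraries rich in choroid plexus RNA. It measured 3.48, 3.95, 2.53, 5.02 and 3.81 FPKM in AD_Veh, 4.37, 2.57, 3.17, 5.57 and 3.69 FPKM in AD_LowP and 11.6, 3.78, 2.95, 9.98 and 2.97 FPKM in AD_HighP. In wild-type mice it measured 8.22, 9.98, 4.18, 2.92 and 4.09 FPKM in WT_HighP and 3.19, 3.00, 3.89, 3.41 and 2.48 FPKM in WT_Veh. The 4 libraries with over 100 FPKM of Ttr had 8.22 to 11.6 FPKM of Ace, above the 2.48 to 5.57 FPKM of the other 21, and all 4 came from mice given high P. The log2 difference was 0.67 in WT_HighP against WT_Veh (limma adjusted p = 0.1826) and 0.47 in AD_HighP against AD_Veh (limma adjusted p = 0.7846), and without those 4 libraries the first was 0.19 (limma adjusted p = 0.6225) and the second -0.17 (limma adjusted p = 0.9999). Between genotypes Ace differed by 0.19 under vehicle (95% interval -0.49 to 0.86, limma adjusted p = 0.8987).

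**Figure D5:**
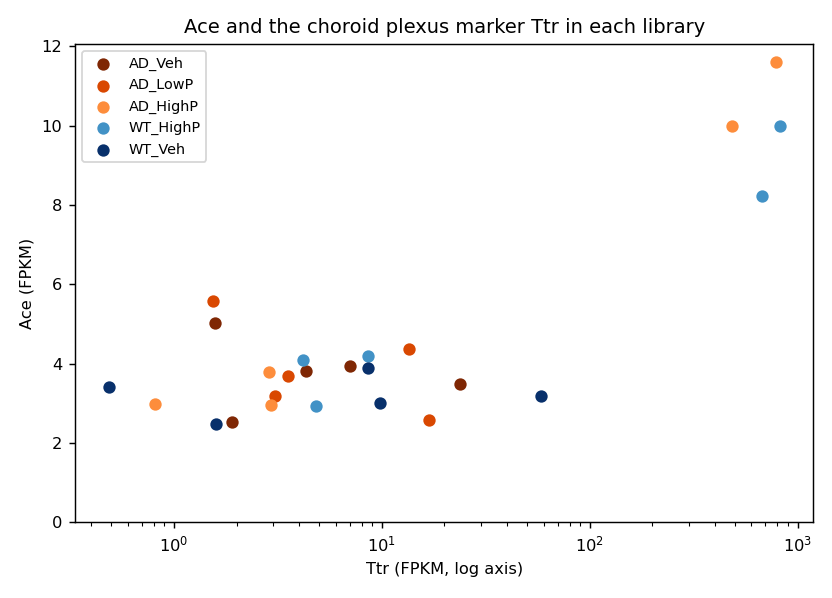
Level of Ace (vertical axis, FPKM, from 0) against that of the choroid plexus gene Ttr (horizontal axis, FPKM, log axis) in each of the 25 libraries, coloured by group. The 4 libraries with 484 to 820 FPKM of Ttr are the ones with the highest Ace, 8.22 to 11.6 FPKM.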

How the data were processed

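Cortical RNA of 25 mice was sequenced from strand-specific, poly(A)-selected libraries, per the labels' protocols. The submitters' processing notes name HISAT2 and mm10; the aligner's version, the annotation and the counting tool are not given there. For 54532 genes per library the authors deposited FPKM, already normalized for gene length and library size, beside the lengths. Multiplied by gene length, 100% of the nonzero FPKM were whole numbers of a library's step (tolerance 0.01 of a read), which gave the reads per library, 15518358 to 17698222; with these depths a log2 fold change between groups of 5 had a median SE of 0.15. PCR duplicates cannot be told from other reads. No pair of libraries agreed within sampling noise (smallest chi-square per gene 5.10).

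Tests covered genes reaching 0.5 FPKM in 5 or more libraries. On log2(FPKM + 0.5), group means of the 25 libraries were fitted by limma 3.58.1 (R 4.3.3), with 20 residual degrees of freedom and moderated variances that follow intensity. The 7 comparisons were two-sided, with Benjamini-Hochberg adjustment over all tested genes and calls at an adjusted p under 0.05. The procedure was tested on simulated data. GC content came from a GENCODE annotation and was known for 99.9% of tested genes. Promoters were RefSeq's.

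The members, their classes, the further risk genes and the marker lists were chosen with earlier results of these data known. No list was tested as a set. Every library's values are given for each member called in a comparison and for Bin1, Picalm, Sorl1, Mef2c, Ptk2b and Ace, and other members by means or ranges. Each library came from a different mouse, per the series' design. Alternatives were pseudocounts of 0.1 and 1, a filter of 1 FPKM or none, scaling to TPM, voom on recovered reads, a replicate block, array weights, a GC correction, a sex term, a fit of the compared groups alone, leaving out each replicate and leaving out 5 libraries with Ttr over 5 times its median. The GC correction with the block, and leaving out the 4 libraries with over 100 FPKM of Ttr, were added after seeing the data.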

Additional observations from a re-analysis of the deposited data

Results flagged for a closer look

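Each of the 30 tested members was screened in each of the 5 groups for a mouse far from the others of its group, and 3 of 150 groups had one, where chance gives about 1 in 20, or 7.5. Snx1 was at 11.1 FPKM in WT_HighP replicate 5, where the other mice of that group had 11.78 to 11.995 FPKM. Fermt2 was at 18.1 FPKM in AD_Veh replicate 3, beside 15.7 to 16.3 FPKM in the other 4 mice. Wwox was at 2.06 FPKM in AD_Veh replicate 5, beside 2.79 to 2.97 FPKM in the others. None of these genes was called in any comparison.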

How the results depend on the processing

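Between AD_Veh and WT_Veh the members called numbered 4, and 2 with a filter of 1 FPKM or with only the groups compared; leaving out single mice gave 2 to 5, and Ptpn6 and Cd48 were called in every setting. Blnk was gained with TPM scaling, array weights or the sex term and without WT_Veh replicate 1 or AD_Veh replicate 5. Between AD_HighP and WT_HighP the count of 2 became 5 with array weights (Abi3, Blnk and the neuronal Mef2c gained), 3 with the GC correction (Abi3 gained) and 1 without the libraries of high Ttr by either rule, where Cd48 was lost; leaving out single mice gave 2 each time. In WT_HighP against WT_Veh the count of 1 became 0 with no filter, TPM scaling, the replicate block, the GC correction with or without the replicate block, or without the libraries of high Ttr by either rule, and 8 with array weights; leaving out single mice gave 0 to 8, the 8 without WT_Veh replicate 1. The Abi3 call under vehicle was lost on leaving out WT_Veh replicate 2, 4 or 5 or AD_Veh replicate 1, 2 or 4, and that of Rin3 on leaving out WT_Veh replicate 2, 3, 4 or 5 or AD_Veh replicate 1, 3 or 4. Further settings that lost the Abi3 call were the replicate block, the compared groups alone and leaving out the 4 libraries with over 100 FPKM of Ttr. For Rin3 they were a filter of 1 FPKM, no filter, the compared groups alone and the GC correction with or without the replicate block. Other comparisons had 0 members called in every setting. The causes were not tested.

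Signs were followed across settings only for called values and for some others. These were Bin1, Picalm, Sorl1, Mef2c, Ptk2b and Ace in AD_Veh against WT_Veh, and Ace in high P against vehicle. Among these, signs turned for 2 members, in values that were not called. Ptk2b in AD_Veh against WT_Veh was -0.0097 with array weights, -0.027 with the GC correction with or without the replicate block and -0.013 without libraries of high Ttr, and ranged between -0.013 and 0.073 on leaving out single mice. Ace in AD_HighP against AD_Veh was -0.17 without the libraries of high Ttr by either rule.

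Replicate numbers were shared by the groups. Deviations of same-numbered libraries correlated between -0.379 and 0.273 and over 0.1 in 11 of 50 pairs, which cannot settle whether the numbers pair the mice. In every group replicates 1 to 3 were male and 4 and 5 female, so a replicate block also takes up sex. The replicate block called 3 members in AD_Veh against WT_Veh, 2 in AD_HighP against WT_HighP and 0 in WT_HighP against WT_Veh. Depth limits the low members: Abi3 rested on 34.5 reads per library and Cd48 on 40.3.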
